A study of Mus musculus with 6 samples.

Results

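Chemokine receptors are heptahelical receptors that couple to inhibitory G proteins and let leukocytes move along gradients of chemokines, small secreted proteins. In macrophages they decide which signals a cell follows: Ccr2 answers the monocyte attractant Ccl2, Ccr1 the inflammatory chemokines Ccl3, Ccl5 and Ccl7, Cx3cr1 the membrane-bound chemokine Cx3cl1 and Cxcr4 the retention signal Cxcl12. The account below covers 7 receptor genes, Ccr1, Ccr2, Ccr3, Ccr7, Ccrl2, Cx3cr1 and Cxcr4, out of 57010 genes in the count table, found there by symbol. They were chosen by name as receptors of macrophages with the hypoxic-EV to normoxic-EV differences of these same libraries already known, so those differences are given as a description, without a p-value.

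The samples were RAW 264.7 cells, a transformed mouse macrophage line, all stimulated with lipopolysaccharide, a component of the outer membrane of Gram-negative bacteria, and then given extracellular vesicles (EVs) from tendon stem cells. The EV donors had been preconditioned in hypoxia for 3 samples (hypoxic-EV) and in normoxia for the other 3 (normoxic-EV). The comparison asks how the oxygen supply of the vesicle donors bears on macrophage transcripts. Cells without vesicles or without lipopolysaccharide were not analysed here, the donor species was not known from the labels, and the cells are 1 line without the mixture of macrophages that a tissue holds.

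Poly(A) RNA was sequenced to library totals between 16751665 and 23422328 counts. Of the macrophage markers checked, 9 of 10 were expressed, among them Csf1r, the M-CSF receptor gene, at 352 ± 13.4 CPM in hypoxic-EV and 174 ± 6.93 CPM in normoxic-EV (counts scaled by library size, SD, n = 3), and Adgre1, which encodes F4/80, at 96.8 ± 4.71 and 168 ± 4.05 CPM in the same groups. Mertk, an efferocytosis receptor gene, was under the filter with 7 and 4 counts in those groups. The summed level of the macrophage markers ran from 8156 to 8510 CPM in hypoxic-EV and from 10009.9 to 10461 CPM in normoxic-EV. Most of this sum was Lyz2, at 6091 ± 176 CPM in hypoxic-EV and 7946 ± 208 CPM in normoxic-EV, so it mainly follows that gene. Among these markers 2 genes were higher and 5 lower. Over all tested genes 22.7% were higher and 21.5% lower. None of 12 tendon and stromal markers passed the filter: their sum ran from 0.990 to 1.59 CPM in hypoxic-EV and from 1.14 to 2.39 CPM in normoxic-EV, and Tnmd, Thbs4, Col1a2, Col3a1 and Fmod had 0 counts. Of 9 eosinophil and neutrophil markers, 8 were under the filter, with Ear2 and Elane at 0, and S100a8 was lower at 110 ± 12.4 CPM in hypoxic-EV against 249 ± 17.7 CPM in normoxic-EV; the list summed to 96.0 to 120 CPM and 237 to 270 CPM in those groups. The 7 dendritic cell markers summed to 4.60 to 5.55 CPM in hypoxic-EV and 6.40 to 7.96 CPM in normoxic-EV, of which 1, Ccl22, was lower and 2 tested genes were not called. The 7 lymphocyte markers summed to 0.868 to 1.08 CPM in hypoxic-EV and 0.419 to 0.701 CPM in normoxic-EV, with Cd3e and Cd8a at 0 and Cd79a higher. The part of these markers in the receptor values was not tested.

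Promoter sequences are printed for the 3 receptor genes with the largest changes and for Ccrl2, the 1 expressed member whose windows held a match to the NF-kB consensus. The windows run from 250 bases before to 50 bases after a RefSeq start site on the reverse strand of GRCm38.p6, an earlier build than that of the counts. They lie at chr1:128592250-128592549 for Cxcr4, chr9:120068247-120068546 for Cx3cr1, chr9:123968643-123968942 for Ccr1 and chr9:111057469-111057768 for the first of 3 starts of Ccrl2. Capitals mark matches on either strand to the HIF core ACGTG, the AP-1 site TGANTCA, the PU.1 core GAGGAA, the TATA box TATAAA or the NF-kB consensus.
Cxcr4: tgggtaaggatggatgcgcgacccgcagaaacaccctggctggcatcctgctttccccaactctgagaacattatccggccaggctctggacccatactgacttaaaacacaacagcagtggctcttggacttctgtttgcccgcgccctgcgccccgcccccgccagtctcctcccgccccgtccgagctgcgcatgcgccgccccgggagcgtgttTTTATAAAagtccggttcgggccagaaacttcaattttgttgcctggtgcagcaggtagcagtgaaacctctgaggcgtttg
Cx3cr1: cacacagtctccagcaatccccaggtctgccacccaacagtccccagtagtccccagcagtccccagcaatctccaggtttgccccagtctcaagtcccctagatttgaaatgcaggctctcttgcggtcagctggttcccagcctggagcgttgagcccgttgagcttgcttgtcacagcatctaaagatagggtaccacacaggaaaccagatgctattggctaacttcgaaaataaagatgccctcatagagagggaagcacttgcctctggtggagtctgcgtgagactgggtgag
Ccr1: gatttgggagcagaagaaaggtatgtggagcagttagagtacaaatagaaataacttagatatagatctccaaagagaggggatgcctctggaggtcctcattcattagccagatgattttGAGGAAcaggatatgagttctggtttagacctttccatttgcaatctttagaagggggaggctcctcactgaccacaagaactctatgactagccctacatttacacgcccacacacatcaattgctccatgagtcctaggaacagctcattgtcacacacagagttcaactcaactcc
Ccrl2: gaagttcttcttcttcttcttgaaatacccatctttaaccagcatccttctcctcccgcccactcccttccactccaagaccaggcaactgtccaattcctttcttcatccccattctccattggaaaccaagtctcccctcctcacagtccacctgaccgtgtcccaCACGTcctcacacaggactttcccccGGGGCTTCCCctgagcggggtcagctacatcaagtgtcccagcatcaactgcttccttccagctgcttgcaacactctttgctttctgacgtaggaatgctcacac

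RefSeq windows were found by symbol for 6 of the 7 members. The Cxcr4 window had a TATA box match starting 30 bases before the start site, which overlaps a second match on the other strand, and held 20 CpG dinucleotides at 59.3% GC, against a median of 7 CpG and 52.7% GC over 32851 windows of the same length. Cx3cr1 had no match to any of the 5 motifs in a window with 5 CpG. Ccr1 had 1 PU.1 core match at -129 from the start site and 1 CpG, Ccr2 had 1 CpG and no match, and Ccr3, also with 1 CpG, had an AP-1 match and an overlapping pair of PU.1 and NF-kB matches. The first Ccrl2 window had a HIF core match at -82 and an NF-kB match at -56, and its other windows, which overlap each other, share a HIF core match further downstream. Among all windows 19.6% held the HIF core, 28.3% the PU.1 core, 13.6% the TATA box, 7.81% the AP-1 site and 4.51% the NF-kB consensus. Since Cx3cr1 had no match, Cxcr4 and Cx3cr1, the members that were higher, could not share a listed motif in these windows. A match in a window is not a binding site, and a window without one says nothing of the factor.

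In macrophages given hypoxic-EV, the transcripts of Cxcr4 and Cx3cr1 were more than 3-fold more abundant than with normoxic-EV, those of Ccr1 were 2.85-fold and of Ccr2 1.75-fold less abundant, and Ccrl2 was not called. Ccr3 and Ccr7 were at the limit of detection in both groups. Of the 7 members, 5 passed the filter on low counts. Of these 5, 4 had an edgeR adjusted p under 0.05, 2 of them higher and 2 lower; over the whole fit 44.2% of 13303 tested genes were called in this way, 22.7% higher and 21.5% lower. The groups did not overlap in CPM for any of the 5 tested members, as for 52.8% of all tested genes. These counts carry no weight as support, since the contrast was known when the genes were chosen. In RNA from whole cultures, fewer cells that make a transcript and less transcript per cell cannot be told apart.

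Cxcr4 encodes the receptor for Cxcl12, which holds leukocytes in bone marrow and tissue (ENSMUSG00000045382, chromosome 1, 128515936 to 128520030, reverse strand, GRCm39). Its level was 40.7, 40.2 and 36.7 CPM in hypoxic-EV replicates 1 to 3, against 8.73, 10.9 and 11.0 CPM in normoxic-EV replicates 1 to 3. Every hypoxic-EV library was above every normoxic-EV library. The fold change was 3.81 (log2 1.93, SE 0.0879), which ranked 20 from the top of the 13303 tested genes. CPM values are TMM-scaled, and a log2 fold change is hypoxic-EV over normoxic-EV throughout.

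Cx3cr1 encodes the receptor for Cx3cl1 and is widely used as a marker of resident macrophages and microglia (ENSMUSG00000052336, chromosome 9, 119730682 to 119898945, reverse strand, GRCm39). It stood at 55.5, 62.0 and 53.2 CPM in hypoxic-EV and at 16.3, 16.7 and 16.6 CPM in normoxic-EV. The libraries of normoxic-EV were nearly level with each other and all far below those of hypoxic-EV. The fold change was 3.44 (log2 1.78, SE 0.0735), ranked 32 from the top. The annotated gene spans 168 kb and overlaps Wdr48 on the opposite strand, whose total count is 164.5% of that of Cx3cr1, and Gorasp1 and Csrnp1 on its own strand, at 37.0% and 38.6%. These had log2 fold changes of 0.14, 0.25 and -0.12, against 1.78 for Cx3cr1. The strand setting was not given, so reads in the overlaps are uncertain. Their part in the Cx3cr1 values was not tested.

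Ccr1 encodes a receptor for Ccl3, Ccl5, Ccl7 and, in mouse, Ccl6 and Ccl9 (ENSMUSG00000025804, chromosome 9, 123762161 to 123768729, reverse strand). Hypoxic-EV libraries had 37.5, 40.7 and 47.0 CPM and normoxic-EV libraries 122, 126 and 112 CPM. The hypoxic-EV libraries were all well below the normoxic-EV libraries. Ccr1 was 2.85-fold lower (log2 fold change -1.51, SE 0.0685), ranked 95 from the bottom. Among similar sequences near it, the paralogue Ccr1l1 had 1 count in all and the processed pseudogene Gm2774 27, against 9223 for Ccr1.

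Ccr2 encodes the Ccl2 receptor that brings inflammatory monocytes out of bone marrow (ENSMUSG00000049103, chromosome 9, 123901987 to 123913594, forward strand). It had 11.9, 12.1 and 12.7 CPM in hypoxic-EV and 20.3, 20.3 and 23.6 CPM in normoxic-EV. The values of hypoxic-EV lay close together and below all of normoxic-EV, a 1.75-fold lower level (log2 fold change -0.81, SE 0.0897).

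Ccrl2 encodes an atypical receptor that binds the attractant chemerin and does not signal like the others (ENSMUSG00000043953, chromosome 9, 110883554 to 110886587, reverse strand). It had 6.73, 6.02 and 7.70 CPM in hypoxic-EV and 8.61, 7.77 and 8.40 CPM in normoxic-EV. The highest hypoxic-EV library was just under the lowest normoxic-EV library, so the groups barely separated. The log2 fold change was -0.27 (SE 0.124), the smallest of the 5. Without hypoxic-EV replicate 3 it was -0.37, and the number of members lower at an adjusted p under 0.05 was then 3.

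Ccr3, the eotaxin receptor gene of eosinophils (ENSMUSG00000035448, chromosome 9), had 2, 1 and 1 counts in hypoxic-EV and 0, 1 and 2 counts in normoxic-EV. Ccr7, the gene of the receptor that takes dendritic cells and lymphocytes to lymph nodes (ENSMUSG00000037944, chromosome 11), had 1, 2 and 2 counts in hypoxic-EV and 2, 1 and 0 counts in normoxic-EV. Neither passed, in any of the 6, the floor of 3 counts that remains possible where 0 are seen, between 0.129 and 0.179 CPM. No fold change is given for them, and a difference between the groups was not detectable at this depth.

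**Figure D1:**
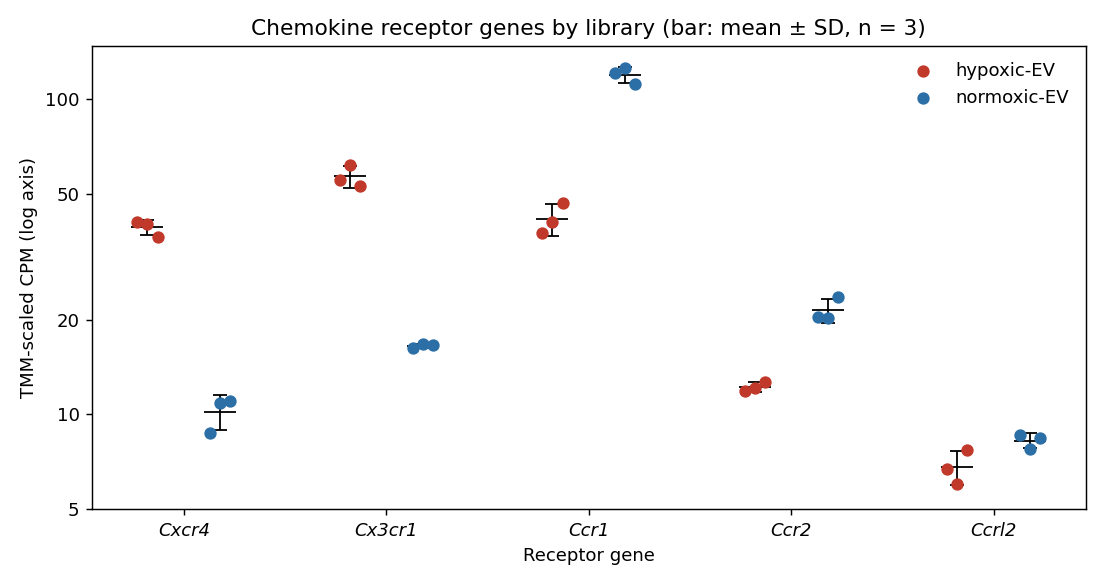
TMM-scaled CPM (log axis) of the 5 receptor genes that passed the filter, with 1 point per library and the mean ± SD of 3 libraries, hypoxic-EV in red at the left and normoxic-EV in blue at the right of each pair. Cxcr4 and Cx3cr1 lie higher in hypoxic-EV, Ccr1 and Ccr2 lower, and the Ccrl2 values of the groups nearly meet.

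Replicate spread differed among the members. For Ccr1 in hypoxic-EV the coefficient of variation of CPM was 11.5%, against 3.45% from counting alone at its mean count, and for Cx3cr1 in the same libraries 8.02% against 2.97%. In normoxic-EV Cx3cr1 varied by 1.37%, less than the 5.67% that counting alone gives on average, while Cxcr4 varied by 12.5% against 7.19%. The differences between groups in Cxcr4, Cx3cr1, Ccr1 and Ccr2 were each larger than this spread. As the members were chosen with those differences known, this is a description and lends no support. In the authors' deposited table of 462 genes, all with log2 fold changes over 1 in size, Cxcr4 is listed at 1.94, Cx3cr1 at 1.78 and Ccr1 at -1.51; Ccr2 and Ccrl2 are not among its genes.

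Levels of different genes were compared per length, in FPKM, which divides by gene length and library size. In hypoxic-EV the order was Cxcr4 at 21.7 ± 1.38 FPKM, Ccr1 at 14.7 ± 1.57, Cx3cr1 at 12.6 ± 0.980, Ccrl2 at 2.62 ± 0.320 and Ccr2 at 1.81 ± 0.0486 (SD, n = 3). In normoxic-EV it was Ccr1 at 42.2 ± 2.53 FPKM, Cxcr4 at 5.64 ± 0.719, Cx3cr1 at 3.66 ± 0.0606, Ccrl2 at 3.18 ± 0.162 and Ccr2 at 3.16 ± 0.283. Neighbours in the order whose libraries overlapped were Ccr1 and Cx3cr1 in hypoxic-EV and Ccrl2 and Ccr2 in normoxic-EV, and Ccr7 and Ccr3, at no more than 0.0602 FPKM in any library, could not be ordered in either group. Per length, the leading receptor was thus Cxcr4 in each hypoxic-EV library and Ccr1 in each normoxic-EV library. The lead of Cxcr4 depends on the gene lengths used. In CPM the hypoxic-EV means were 56.9 for Cx3cr1, 41.8 for Ccr1 and 39.2 for Cxcr4.

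The summed FPKM of the 7 genes was somewhat lower in hypoxic-EV, at 53.5 ± 0.581 against 57.9 ± 2.13 in normoxic-EV (SD, n = 3). It ran from 53.1 to 54.1 in hypoxic-EV and from 55.9 to 60.2 in normoxic-EV, without overlap. The make-up of the sum differed as well. Ccr1 held 27.5 ± 3.03% of the sum in hypoxic-EV and 72.9 ± 2.09% in normoxic-EV. Cxcr4 held 40.5 ± 2.54% in hypoxic-EV and 9.75 ± 1.28% in normoxic-EV, and Cx3cr1 23.6 ± 1.60% and 6.34 ± 0.223% in those groups. Within single libraries the ratio of Cxcr4 to Ccr1 was 1.70, 1.55 and 1.22 in hypoxic-EV and 0.113, 0.135 and 0.155 in normoxic-EV. The ratio of Cxcr4 to Cx3cr1 changed far less, at 1.83, 1.61 and 1.72 in hypoxic-EV and 1.34, 1.62 and 1.65 in normoxic-EV, where the groups overlapped. Ccr1 fell more than Ccr2: the ratio of Ccr1 to Ccr2 was 7.55, 8.001 and 8.83 in hypoxic-EV and 14.3, 14.8 and 11.3 in normoxic-EV. Such ratios within a library do not depend on how libraries are scaled to each other.

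**Figure D2:**
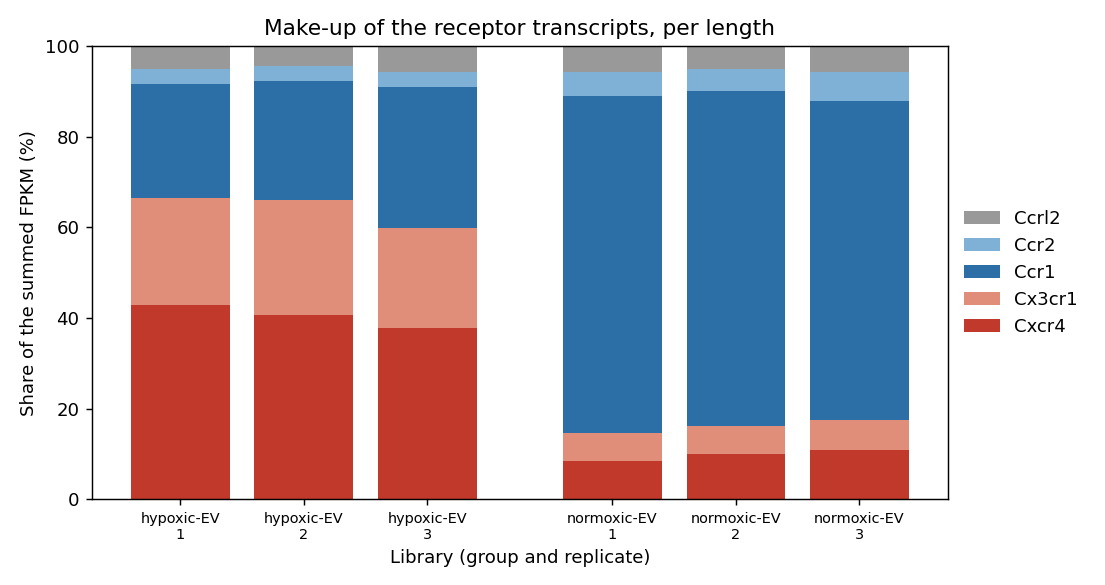
Share (%) of each receptor gene in the summed FPKM of the 7 genes in each library, hypoxic-EV at the left and normoxic-EV at the right; Ccr3 and Ccr7 are too low to be seen. Ccr1 makes up 70.5% to 74.3% in the normoxic-EV libraries and 25.2% to 31.0% in the hypoxic-EV libraries, where Cxcr4 and Cx3cr1 take the larger part.

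Few other chemokine receptors were expressed. Of 19 further receptor genes, 13 were under the filter, 5 of them with 0 counts (Ccr6, Cxcr1, Ackr1, Ackr3 and the chemerin receptor gene Cmklr1). Of the 6 tested, 1 was higher, 2 were lower and 3 were not called, where 44.2% of all tested genes were called. Their median log2 fold change was -0.53, against -0.001 for all tested genes. Cxcr3, the receptor gene for interferon-induced CXC chemokines, was higher at 4.65 ± 0.670 CPM in hypoxic-EV against 3.31 ± 0.588 CPM in normoxic-EV (SD, n = 3 each; edgeR log2 fold change 0.48, adjusted p = 0.0276). Its call ended by DESeq2 (adjusted p = 0.0951) and without hypoxic-EV replicate 1 (0.103), hypoxic-EV replicate 3 (0.0730) or normoxic-EV replicate 2 (0.148). Cxcr5, the receptor gene of B cells and follicular T cells, was lower at 2.92 ± 0.416 CPM in hypoxic-EV against 4.43 ± 0.475 CPM in normoxic-EV (n = 3 each, edgeR log2 fold change -0.61, adjusted p = 0.00623). It overlaps Bcl9l on the other strand, at 305% of its own total count, so its reads are uncertain. Ccr10, Xcr1 and Gpr182 had log2 fold changes of 0.41, -0.45 and -0.73 and were not called. Without hypoxic-EV replicate 3, Gpr182 reached -1.51 (edgeR adjusted p = 0.00505); it lies across from Zbtb39, whose total count was 3989% of its own, and Ccr10 across from Cntnap1, at 764%.

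The ligand genes tested were mostly lower, while Cxcl12 was at 0 and Cx3cl1 was little expressed. Of 18 ligand genes listed for macrophage chemokine receptors, 9 passed the filter. Of these, 6 were lower, 1 was higher and 2 were not called (median log2 fold change -1.05). Over all tested genes 21.5% were called lower and 22.7% higher. The list was written with earlier results of these data known, so the counts are a description. Ccr1 ligands that fell were Ccl3 at -1.59, Ccl9 at -1.30, Ccl5 at -0.38 and Ccl7 at -2.90, while Ccl6 stood at 0.10 and was not called (edgeR adjusted p = 0.818). Ccl2, the main Ccr2 ligand gene, had 91.7, 92.5 and 102 CPM in hypoxic-EV and 222, 202 and 170 CPM in normoxic-EV, values that did not overlap (edgeR log2 fold change -1.05 ± 0.0715 SE, adjusted p = 1.62e-10). Ccl12, another Ccr2 ligand gene in mouse, was under the filter with 9 and 14 counts in those groups. Ccl4, another inflammatory CC chemokine gene, was lower at 194 ± 10.2 CPM in hypoxic-EV against 459 ± 31.0 CPM in normoxic-EV (SD, n = 3). Ccr1 and Ccr2 were thus lower in the same libraries as most of the tested genes of the ligands they bind.

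For Cxcl12, the chemokine ligand gene of Cxcr4, 0 counts were found in all 6 libraries. The floor of 3 counts was no higher than 0.179 CPM in any of them, a limit from counting error and not a strict maximum. Mif, whose product also binds Cxcr4, was higher at 289, 197 and 288 CPM in hypoxic-EV against 192, 181 and 171 CPM in normoxic-EV (edgeR log2 fold change 0.51 ± 0.0940 SE, adjusted p = 0.000157). Hypoxic-EV replicate 2 was close to the normoxic-EV libraries, and Mif has processed pseudogenes that may share its reads. Cx3cl1, the ligand gene of Cx3cr1, had 0.649, 0.613 and 0.559 CPM in hypoxic-EV and 0.419, 0.117 and 0.400 CPM in normoxic-EV (edgeR log2 fold change 0.91 ± 0.433 SE, adjusted p = 0.0966). The groups did not overlap, but with 36 and 18 counts in all the difference did not pass the test. The Ccr7 ligand genes Ccl19 and Ccl21a and the Ccr3 ligand genes Ccl11 and Ccl26 were at 0, Ccl24 had 1 count, and Rarres2, the chemerin gene, had 1 count in hypoxic-EV and 3 in normoxic-EV. Ccl8 was at 0 as well.

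**Figure D3:**
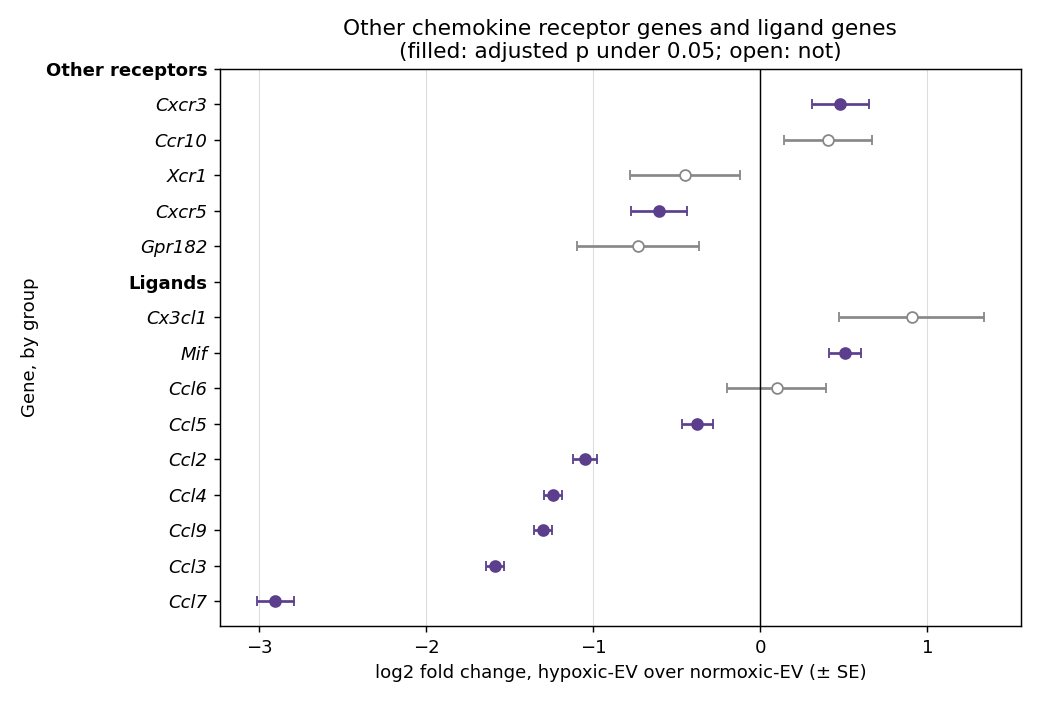
Log2 fold change of hypoxic-EV over normoxic-EV (± SE) for the 5 further receptor genes named in the text and the 9 tested ligand genes, from 3 libraries a group; filled points had an edgeR adjusted p under 0.05. The inflammatory CC ligands lie to the left, down to Ccl7 at -2.90, and Mif and Cx3cl1 to the right.

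Downstream of the receptors, genes that carry the signal and genes that end it changed in both directions. Of 34 genes of chemokine receptor signalling, 32 were tested, of which 11 were higher, 7 lower and 14 not called, with a median log2 fold change of 0.06. For comparison, 22.7% of all tested genes were called higher and 21.5% lower. Among 9 tested G protein subunit genes 1 was higher, 3 were lower and 5 were not called, with Gng5 at -0.38 (SE 0.0615, edgeR adjusted p = 3.67e-05) the lowest. Among 10 effector genes 6 were higher and 2 lower. They included Pik3r6 at 0.74 and Pik3r5 at 0.62, the adaptor genes of the PI3-kinase that beta-gamma subunits activate, and Prex1 at 0.65, which encodes an exchange factor for Rac. Prex1 stood at 72.9 ± 1.47 CPM in hypoxic-EV and 46.4 ± 2.26 CPM in normoxic-EV (SD, n = 3, edgeR adjusted p = 6.31e-09). Elmo1, which encodes the partner of the Rac exchange factor Dock2, was lower at -0.29 (edgeR adjusted p = 4.00e-05).

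Of 5 tested genes of arrestins and receptor kinases, which switch off and internalise activated receptors, 3 were higher and none was lower. Arrb1, encoding beta-arrestin 1, had 49.3, 48.8 and 47.2 CPM in hypoxic-EV and 23.6, 20.3 and 20.04 CPM in normoxic-EV, a 2.28-fold higher level with no overlap (edgeR log2 fold change 1.19 ± 0.0719 SE, adjusted p = 2.66e-11). It had the largest change of the 32 genes. Of 8 RGS genes, whose proteins speed the shut-off of G protein alpha subunits, 1 was higher and 2 were lower. Rgs1 was lower at 524 ± 23.7 CPM in hypoxic-EV against 739 ± 35.0 CPM in normoxic-EV (SD, n = 3 each; edgeR log2 fold change -0.50, adjusted p = 5.51e-08), and Rgs3 had a log2 fold change of -0.54. No class of these signalling genes was tested against the 44.2% of all tested genes that were called, so none is singled out.

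**Figure D4:**
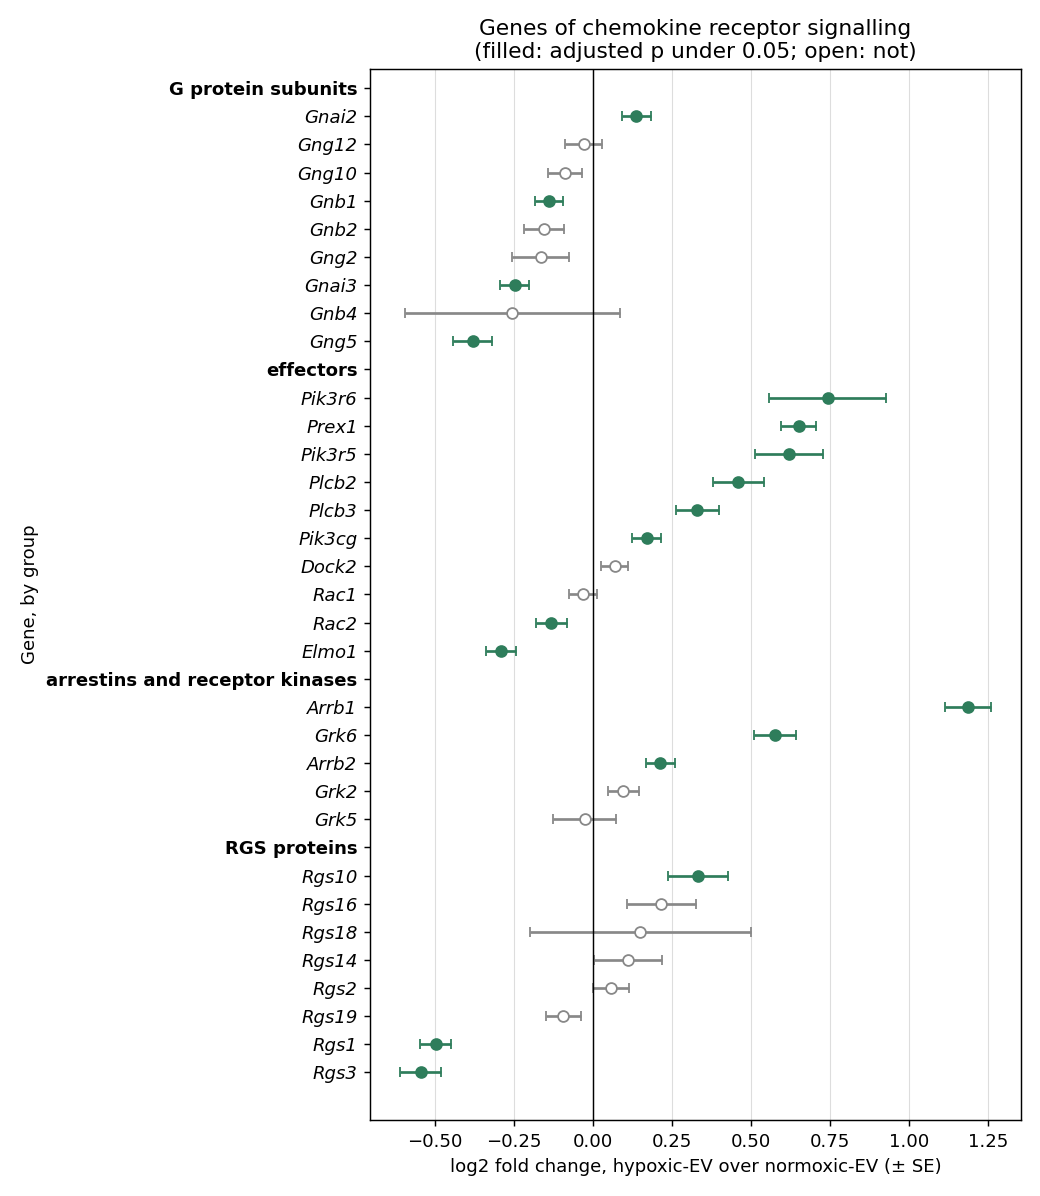
Log2 fold change of hypoxic-EV over normoxic-EV (± SE) for the 32 tested genes of chemokine receptor signalling, by function, from 3 libraries a group; filled points had an edgeR adjusted p under 0.05. Arrb1 lies farthest to the right at 1.19 and Rgs3 farthest to the left at -0.54.

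Of the 7 members, 5 lie on chromosome 9, where Ccr1, Ccr3 and Ccr2 stand side by side with Ccr1l1 and Xcr1. Outside the members, 35 annotated genes start within 100 kb of one of those 5, and 9 were tested. Of the 9, 3 were higher, 2 lower and 4 not called, where 44.2% of all tested genes were called. The lower ones include the unnamed long noncoding gene ENSMUSG00000120693 (edgeR log2 fold change -0.82 ± 0.275 SE, adjusted p = 0.0193), which starts 37.1 kb from Ccr1. The call of the noncoding gene ended by DESeq2 (adjusted p = 0.109) and without hypoxic-EV replicate 1 (0.0685), hypoxic-EV replicate 3 (0.0907) or normoxic-EV replicate 1 (0.0681). The 3 higher ones lie at Cx3cr1: Rpsa, a ribosomal protein gene with processed pseudogenes, at 0.27 (edgeR adjusted p = 9.31e-05), Gorasp1 at 0.25 and Wdr48 at 0.14, against 1.78 for Cx3cr1. The Gorasp1 call ended by DESeq2 (adjusted p = 0.109) and without hypoxic-EV replicate 1 or 3 and normoxic-EV replicate 2 or 3 (adjusted p = 0.0957, 0.0989, 0.0536 and 0.201), and that of Wdr48 by DESeq2 (0.0682), with a replicate block (0.0597), with no filter on low counts (0.0522) and without hypoxic-EV replicate 1 (0.0877) and each normoxic-EV replicate (0.0634, 0.110 and 0.0711). Lrrfip2, near Ccrl2, had -0.11 and was called without hypoxic-EV replicate 2 only (-0.17, adjusted p = 0.00848).

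Genes whose profile over the 6 libraries was most like that of a member were ranked by the root mean square difference of mean-centred log2 CPM among tested protein-coding genes. Nearest to Cxcr4 were Pmepa1 (0.109) and Cx3cr1 itself (0.136), and nearest to Cx3cr1 were Ankrd37 (0.0937) and Mmp12 (0.101). Nearest to Ccr1 were Ifi203 (0.0736) and its own ligand gene Ccl3 (0.0784). Epg5 (0.0425) and Bend6 (0.0590) were nearest to Ccr2, and Eif6 (0.0332) and Med27 (0.0390) to Ccrl2. Since the 6 libraries form 2 groups, this likeness mostly ranks genes by a similar difference between the groups.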

How the data were processed

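Counts per gene were deposited by the authors for 6 libraries; per the submitters' processing notes, alignment and counting involved HISAT2 and featureCounts, with DESeq2 and the build GRCm39. The versions, annotation, strand setting and handling of reads with several matches were all not given in the sources used here. The authors also deposited FPKM values, a signal of size-factor-normalized counts, and a table of their comparison with log2 fold changes, a test score and p-values, from which only log2 fold changes are printed. Every per-sample column matched 1 sample.

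The test of the counts was that of edgeR 4.0.16 (R 4.3.3): filterByExpr (minimum count 10, minimum total 15), TMM scaling, the 2-sided quasi-likelihood F-test between the groups, and Benjamini-Hochberg adjustment over all 13303 genes tested; called means an adjusted p under 0.05. The SE is the log2 fold change divided by the square root of F. The fits were tested on simulated data. DESeq2 1.42.0, other scaling and filters, and each library left out were alternatives. Log2 CPM for the likeness of profiles used a prior count of 2.

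The members and the lists of receptors, ligands, signalling genes and markers were chosen with earlier results of these data known. Named were all members, the tested ligand genes, and most of the tested receptor and neighbouring genes (within 100 kb on chromosome 9). Also named were the 4 signalling genes of largest change in each direction and the 2 genes most like each member. Others (markers, zero-count genes) were named after their values were seen. Some listed genes are counted but not reported here by name. Library pairs of a group differed by 2.72 to 5.84 chi-square per degree of freedom, more than counting noise, so each was 1 replicate. Nothing in the labels ties the samples to separate cultures, and the spread behind the p-values may thus be technical. Limits from counts cover counting error only.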

Additional observations from a re-analysis of the deposited data

How the results depend on the processing

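The log2 fold changes of the 5 tested members kept their direction under each of the alternatives run: Cxcr4 ran from 1.84 to 2.00, Cx3cr1 from 1.72 to 1.83, Ccr1 from -1.61 to -1.44, Ccr2 from -0.85 to -0.72 and Ccrl2 from -0.37 to -0.19. The counts of members called were 2 higher and 2 lower in each, except 3 lower without hypoxic-EV replicate 3. Of the other receptor genes 3 were called, and 1 by DESeq2; leaving out 1 library gave 2 to 3. Ligand counts did not change, and signalling genes called lower ran from 5 to 8. Of 410 log2 fold changes of 38 genes outside the members set against the main value, 384 kept their direction and side of the threshold, 22 lost the call, 3 gained it (Gpr182, Lrrfip2 and, without hypoxic-EV replicate 3, Med27 at -0.35) and 1 reversed: Ccl6, not called, at -0.26 without hypoxic-EV replicate 3, in a range of -0.26 to 0.32 over the libraries left out. The causes were not tested. None of the 56 shares of the summed FPKM moved by more than 1 SD, but these checks could not have shown otherwise. Leaving out 1 library of 3 shifts a mean by less than 1 SD, and a share within a library does not depend on scaling. Same-numbered libraries did not deviate together (correlations of -0.0156, -0.0177 and -0.0175). No pairing by number was seen, though such correlations cannot exclude that same-numbered samples were prepared together. With the replicate block 5662 genes were called, against 5877 without it. Depth limits the genes under the filter, Ccr3 and Ccr7 included, and tested genes of low count such as Cx3cl1 and Xcr1.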

Other observations

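Among receptor genes under the filter, Cxcr2, the neutrophil chemokine receptor gene, had 15 counts over the 3 hypoxic-EV libraries and 7 over the 3 normoxic-EV libraries, and Cxcr6 had 11 and 6. Ackr4, an atypical receptor gene that takes up the Ccr7 ligands, had 3 counts in hypoxic-EV and 10 in normoxic-EV. Ccr4 had 5 counts in hypoxic-EV and 9 in normoxic-EV, and Ccr9 8 and 9. These genes were not tested.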
